A study of Mus musculus with 8 samples.

Results

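The m6A writer complex is the nuclear enzyme assembly that methylates adenosines in mRNA (N6-methyladenosine, m6A). Its 8 genes were taken by symbol from a table of 39017 Ensembl gene identifiers: Mettl3, Mettl14, Wtap, Virma, Rbm15, Rbm15b, Zc3h13 and Cbll1. All 8 identifiers were found. Of these, 7 passed the filter on low counts and 1, Rbm15b, had no count in any library. Each of the 7 lay above 5 CPM (counts scaled to a common library size) in every library, so none passed the filter through only a single group.

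The cells were fibroblasts grown from E13.5 mouse embryos, either control or Mettl3 knockout. Knockout cells had been given 500 nM 4-hydroxytamoxifen for 48 h to activate a Cre recombinase, and per the labels loss of the protein and of m6A was checked 7 days later. The promoter of the Cre, the exons removed and whether control cells also received the drug are not given in the sources used here. Total RNA came from unstressed cells. The granule fraction came from cells exposed to 500 µM sodium arsenite for 30 min and was enriched for stress granules by centrifugation, so fraction and stress cannot be told apart in any granule to total ratio. All RNA was selected on oligo(dT) beads. The 2 genotypes and 2 kinds of RNA gave 4 groups, each with 2 biological replicates. The labels do not say whether replicates came from separate embryos, so p-values measure only the spread between these libraries. In bulk RNA, fewer cells of a type and less RNA per cell cannot be told apart.

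METTL3 is the catalytic subunit and pairs with METTL14, which helps to hold the RNA substrate. WTAP is the adaptor that keeps this pair in nuclear speckles and links it to a larger regulatory part. VIRMA is the large scaffold of that part, RBM15 and its paralogue RBM15B are RNA-binding proteins that bring the complex to its targets, ZC3H13 anchors the complex in the nucleus, and CBLL1 (HAKAI) is a RING-finger protein of the same assembly. The complex acts on a short consensus whose most frequent form is GGACT in DNA letters.

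The mRNAs of the complex carry this consensus themselves. It was searched on the transcript strand only, in the coding part of the GENCODE M21 transcript with the longest coding sequence (GRCm38). Of 15380 protein-coding genes tested, 76.2% held at least 1 match, and the median density was 1.07 matches per kb of coding sequence. Cbll1 had 3 matches (2.04 per kb), Mettl3 had 3 (1.72 per kb), Wtap had 2 (1.68 per kb), Zc3h13 had 7 (1.35 per kb) and Virma had 7 (1.25 per kb). Rbm15b had 3 (1.13 per kb), Mettl14 had 1 (0.731 per kb) and Rbm15 had 2 (0.693 per kb). A higher density than in Cbll1 was found in 18.5% of the genes, and a higher one than in Rbm15 in 65.6%. By coding sequence all members but Mettl14 and Rbm15 lay above the median density. Over whole transcripts the matches were 4 in Mettl3, 3 in Mettl14, 5 in Wtap, 5 in Cbll1 and 6 in Rbm15b. They were unchanged in Virma, Zc3h13 and Rbm15. No map of methylated sites was used, so a match is a description of sequence. The coding matches in 3 members are printed with 12 bases on either side, GGACT in capitals: those of the deleted gene Mettl3, of Rbm15, the only member called higher in the granule fraction of both genotypes, and of Cbll1, the member with the widest replicate gap.

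Mettl3 site 1, exon 1 of 11, chr14:52304939-52304943, minus strand: taagaaacagctGGACTcgcttcgcgaga
Mettl3 site 2, exon 1 of 11, chr14:52304900-52304904, minus strand, its window ending at the last base of the exon: gcgacggaagcaGGACTctgggcacttgg
Mettl3 site 3, exon 9 of 11, chr14:52296536-52296540, minus strand: caaccagggcctGGACTgcgatgtgattg
Rbm15 site 1, exon 1 of 2, chr3:107332891-107332895, minus strand: ccgtggcggtgaGGACTccagttctcgtg
Rbm15 site 2, exon 1 of 2, chr3:107331190-107331194, minus strand: cagaggtgatcgGGACTtgcccagcagca
Cbll1 site 1, exon 2 of 6, chr12:31494631-31494635, minus strand: agccggcacctcGGACTcaaaggactgtc
Cbll1 site 2, exon 2 of 6, chr12:31494622-31494626, minus strand: ctcggactcaaaGGACTgtcagcaggatg
Cbll1 site 3, exon 4 of 6, chr12:31491537-31491541, minus strand: tgtgacaaatgtGGACTgcctattaaagt

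The members differ in gene structure. Virma (ENSMUSG00000040720, chromosome 4, 11485958 to 11550684) has 25 exons and a transcript of 6571 nt, and Zc3h13 (ENSMUSG00000022000, chromosome 14, 75284373 to 75344426) has 19 exons and 6144 nt. Each of these contains a long internal exon, of 1141 nt and 1191 nt. Rbm15 (ENSMUSG00000048109, chromosome 3, 107325421 to 107333673) has 2 exons, the longest of 3459 nt, in a transcript of 4343 nt. Mettl3 (ENSMUSG00000022160, chromosome 14, 52294841 to 52305128), Mettl14 (ENSMUSG00000028114, chromosome 3, 123368297 to 123386108) and Wtap (ENSMUSG00000060475, chromosome 17, 12966796 to 12994169) are shorter, at 2025, 2741 and 2060 nt, below the median of 2867 nt. Cbll1 (ENSMUSG00000020659, chromosome 12, 31484829 to 31499616) measures 3900 nt and has the lowest GC content of the 8, 40.62%, against a median of 50.8% over all coding genes tested. Rbm15b (ENSMUSG00000074102, chromosome 9, 106880918 to 106887428) is a single-exon gene of 6511 nt with the highest GC content, 56.4%.

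Total counts ran from 67257220 to 123508539 per library. Over the 7 members, replicates of total RNA differed by a median absolute log2 ratio of 0.294 (control) and 0.571 (knockout), and replicates of granule RNA by 0.102 and 0.187. Over 10261 genes that averaged 5 CPM or more, these medians were 0.312, 0.813, 0.101 and 0.135. Knockout total replicate 1 stood apart from the other total libraries also in its share of mitochondrial counts, 7.6% against 0.73% to 0.881%, a share that was 6.16% and 8.81% in the knockout granule libraries. Of 12 fibroblast and mesenchyme markers, 12 averaged 1 CPM or more in each group, with a summed level of 6240 to 9290 CPM. The summed level of 6 epithelial markers was 418 to 686 CPM in control total, 973 to 1050 in control granule, 85.5 to 167 in knockout total and 583 to 718 in knockout granule libraries. Most of it came from Krt18 and Krt19, while the defining markers Epcam and Cdh1 averaged at most 1.98 CPM in any group. Summed levels of 6 haematopoietic markers were 31.1 to 64.1 CPM, led in control total by Ptprc, and those of 5 endothelial, 6 neural and glial and 5 skeletal muscle markers did not exceed 49.2 CPM. Dcx was at 0 in both total groups. The part of these differences in the results below was not tested.

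**Figure D1:**
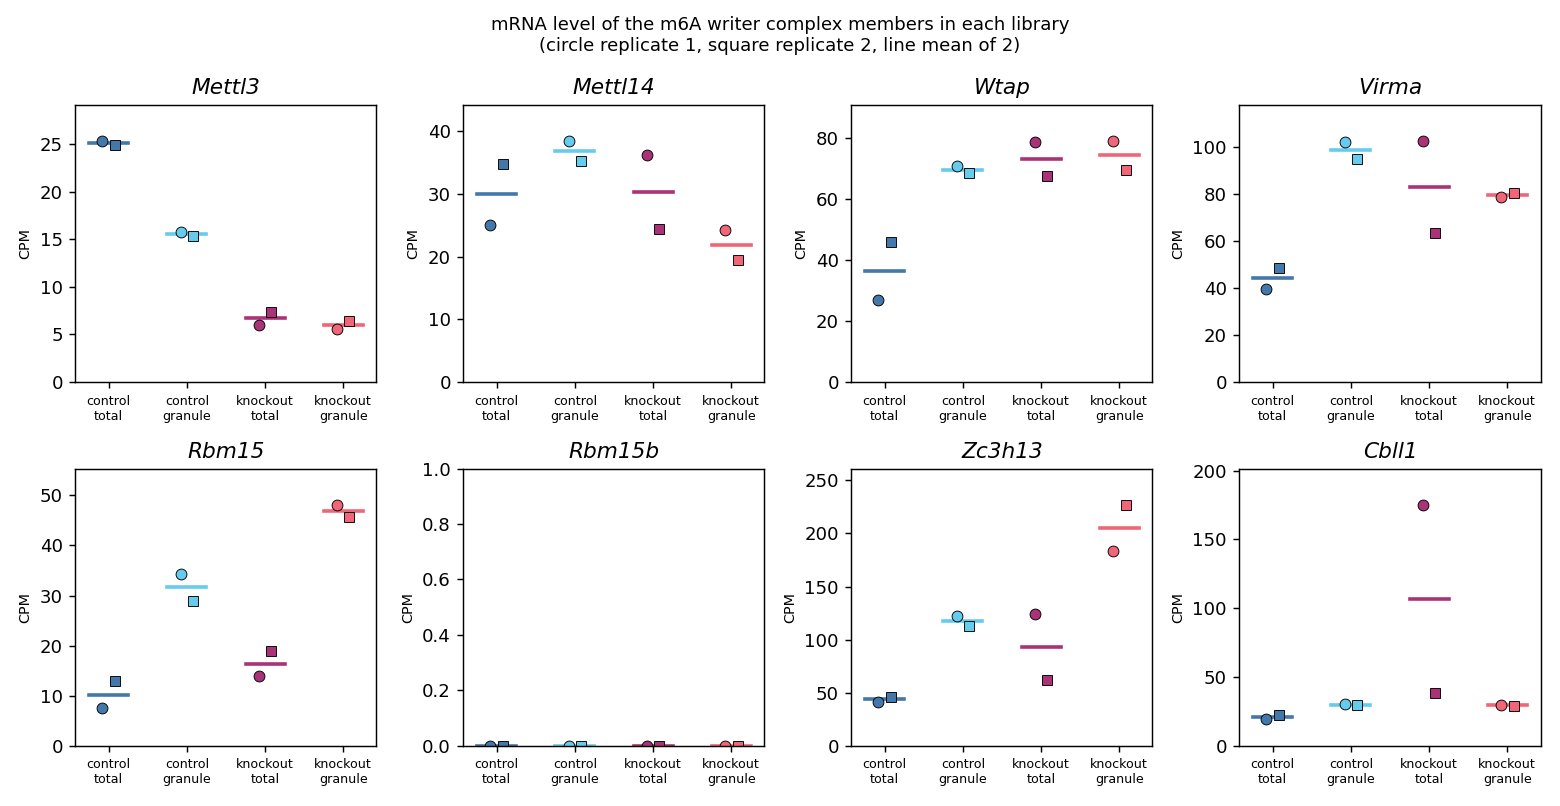
CPM of each of the 8 members in the 8 libraries (circle replicate 1, square replicate 2, line the mean of both), with a linear axis from 0 and its own scale in each panel. Mettl3 is lower in every knockout library than in every control library, Rbm15b is at 0 throughout, and Cbll1 reaches 175.2 CPM in knockout total replicate 1 only.

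The deleted gene, Mettl3, tests the genotype labels. Its levels were 25.37 and 24.94 CPM in control total, 15.73 and 15.38 in control granule, 6.005 and 7.353 in knockout total, and 5.561 and 6.379 in knockout granule libraries. Each knockout library lay below each control library. Between 611 and 708 Mettl3 counts were still assigned to the gene in each knockout library. Since the exons removed are not stated, which part of the gene these counts come from was not tested. Exons of Tox4, which lies on the opposite strand, overlap 18.38% of the exonic bases of Mettl3, and whether counting used strand is not given in the sources used here. Tox4 itself was at 50.16 to 70.74 CPM over the 8 libraries and showed no such drop, with a log2 fold change between knockout and control of -0.07 (SE 0.24) in total RNA and -0.05 (SE 0.24) in the granule fraction.

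Rbm15b, the single-exon paralogue of Rbm15, was listed at 0 in all 8 libraries. A count of 3, the limit that a count of 0 allows, would correspond to 0.0264 to 0.0441 CPM. Among 21303 protein-coding identifiers in the table, 1947 (9.14%) were also at 0 in every library. Exons of Manf and Dcaf1 overlap 1.37% of its exonic bases. Whether the gene is silent in these cells or its reads were not assigned to this identifier was not tested, and no fold change is given for it.

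Levels were compared between genes per length of exonic sequence (RPKM, the CPM divided by the exonic length in kb). In control total RNA the order was Zc3h13 at 6.95 ± 0.501 RPKM, Virma at 6.21 ± 0.891, Wtap at 5.81 ± 2.14, Cbll1 at 5.20 ± 0.491, Mettl3 at 4.96 ± 0.0602, Mettl14 at 4.03 ± 0.92 and Rbm15 at 1.38 ± 0.505 (SD, n = 2). The replicate ranges of neighbours overlapped from Zc3h13 down to Mettl3, and only Mettl14 and Rbm15 lay apart from the member above them. The order depends on which length is used. Divided by the length of the coding transcript, Wtap led at 17.6 ± 6.48 RPKM, followed by Mettl3 at 12.4 ± 0.151 and Mettl14 at 10.9 ± 2.49, ahead of Zc3h13 and Virma, and Rbm15 was again the lowest at 2.35 ± 0.863.

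In the knockout granule fraction the spread between members was wider. Per exonic length, Zc3h13 stood at 32.7 ± 4.94 RPKM, Wtap at 11.9 ± 1.08, Virma at 11.2 ± 0.18, Cbll1 at 7.35 ± 0.166, Rbm15 at 6.32 ± 0.231, Mettl14 at 2.94 ± 0.462 and Mettl3 at 1.18 ± 0.114 (SD, n = 2). Only the replicate ranges of Wtap and Virma overlapped between neighbours. Rbm15 thus ranked above Mettl14 and Mettl3 per exonic length in this fraction and below both in control total RNA.

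**Figure D2:**
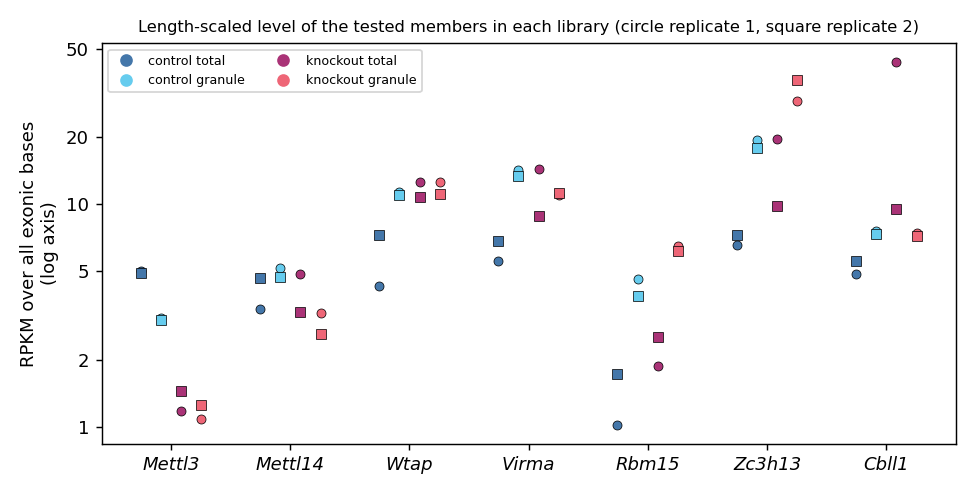
RPKM of the 7 members with counts, over all exonic bases, in each library on a log axis (circle replicate 1, square replicate 2, colour the group). In control total libraries the members other than Rbm15 lie between 3.38 and 7.321 RPKM, and in knockout granule libraries they run from 1.095 for Mettl3 to 36.15 for Zc3h13.

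The granule fraction of control cells was set against control total RNA to ask which writer mRNAs were over-represented there. The regulatory members Rbm15, Zc3h13 and Virma were higher in the granule fraction. Rbm15, an RNA-binding recruiter, rose from 7.561 and 12.86 CPM in the total libraries to 34.27 and 28.96 in the granule libraries. Its log2 fold change was 1.63 (SE 0.33, adjusted p = 0.0267 by edgeR's quasi-likelihood test with Benjamini-Hochberg adjustment). Zc3h13, the nuclear anchor, rose from 41.42 and 45.87 to 122.2 and 112.5 CPM, a log2 fold change of 1.43 (SE 0.35, edgeR adjusted p = 0.0433). The scaffold Virma rose from 39.8 and 48.79 to 102.3 and 95.27 CPM, a log2 fold change of 1.16 (SE 0.30, edgeR adjusted p = 0.0477).

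The other members did not pass the threshold. The adaptor Wtap was at 26.86 and 45.74 CPM in total and 70.68 and 68.57 in granule libraries, a log2 fold change of 0.94 (SE 0.31, edgeR adjusted p = 0.0861). Its groups did not overlap, but the log2 ratio of its total replicates was -0.77, nearly as large as the fitted change. Mettl14 was at 25.08 and 34.74 CPM in total and 38.45 and 35.21 in granule libraries (log2 fold change 0.30, SE 0.31). Cbll1 was at 19.46 and 22.24 CPM in total and 30.45 and 29.54 in granule libraries (0.52, SE 0.58), and its change turned to -0.25 when the GC trend of each library was removed. Mettl3 was the only tested member with a negative value, -0.69 (SE 0.26, edgeR adjusted p = 0.119), with both granule libraries below both total libraries.

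In all, 3 of 7 tested members were called, beside 10.1% of the 18952 genes tested (adjusted p under 0.05), and all 3 were higher, beside 5.89% of all genes called higher. The groups did not overlap for 7 of 7, beside 72.4% of all genes. The median log2 fold change was 0.94 over the 7 and -0.06 over all genes. The number called depended on single libraries: it was 0 without either control total, either control granule or either knockout granule library, with 3 to 4 members at an unadjusted p under 0.05, and 6 without either knockout total library, beside 40.6% (without replicate 1) and 39.9% (without replicate 2) of all genes. When only these 4 libraries were fitted, 6 were called, 5 higher (Rbm15, Zc3h13, Virma, Wtap and Cbll1) and Mettl3 lower, beside 42.4% of all genes. The share of all genes at an unadjusted p under 0.05 is not given for this comparison. Member counts at that threshold are therefore not a result about the members.

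The same question was put to knockout cells. Rbm15 was again higher in the granule fraction, at 13.96 and 18.89 CPM in total and 48.13 and 45.7 in granule libraries. Its log2 fold change was 1.51 (SE 0.33, edgeR adjusted p = 0.0219), close in size to the 1.63 in control cells, with which it shares no library. Zc3h13 was at 124 and 61.97 CPM in total and 183.2 and 227.1 in granule libraries, a log2 fold change of 1.14 (SE 0.35, edgeR adjusted p = 0.0579). Both its granule libraries lay above both total libraries, and the mean log2 ratio was 0.72 over total replicate 1 and 1.72 over total replicate 2.

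Values for Virma, Wtap and Mettl14 were near 0 or negative. Virma was at 102.8 and 63.59 CPM in total and 78.7 and 80.52 in granule libraries, so the granule values fell between the total replicates (log2 fold change -0.06, SE 0.29). Wtap was at 78.68 and 67.35 CPM in total and 79.02 and 69.43 in granule libraries (0.02, SE 0.30). The signs of these 2 values changed under some scalings. Mettl14, the partner of METTL3, was at 36.25 and 24.4 CPM in total and 24.26 and 19.41 in granule libraries (-0.47, SE 0.31). Mettl3 had a log2 fold change of -0.16 (SE 0.26) with overlapping groups.

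Cbll1 gave the widest gap. It was at 175.2 and 38.16 CPM in the knockout total libraries and 29.92 and 28.98 in the granule libraries, a log2 fold change of -1.86 (SE 0.60, edgeR adjusted p = 0.0666). The value was -0.38 without knockout total replicate 1 and -2.70 without replicate 2. Of the 7 tested members 1 was called, beside 17.6% of all genes, and it was higher, beside 9.17% called higher. The groups did not overlap for 4 of 7, beside 58.0%. The count was 0 without either control granule or either knockout granule library, with 1 to 3 members at an unadjusted p under 0.05, 2 without knockout total replicate 1 (beside 34.0% of all genes) and 4 without replicate 2 (beside 48.2%). When only these 4 libraries were fitted it was 0, with 2 members at an unadjusted p under 0.05, and 0.00% of all genes were called. In the fit of all 8 libraries 3 of 7 members were at that unadjusted threshold, beside 34.3% of all genes. The unadjusted share of all genes in the smaller fits is not given here.

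**Figure D3:**
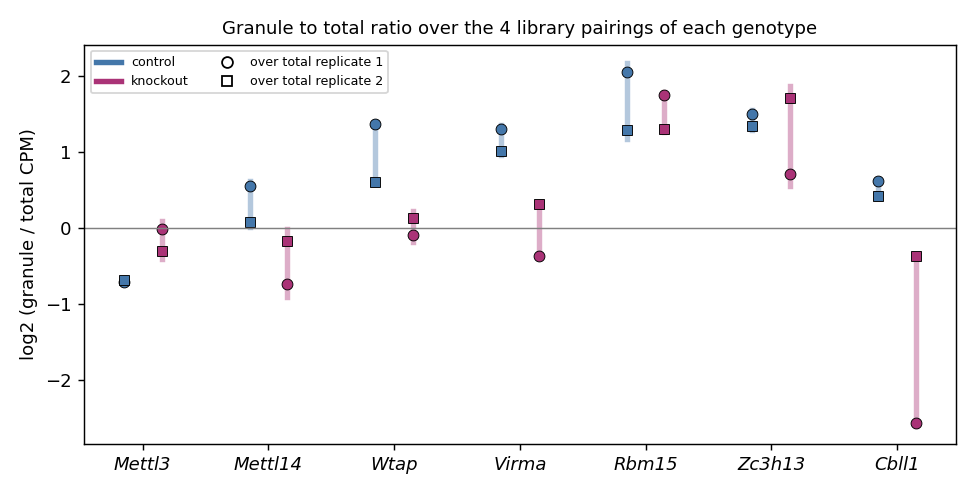
Log2 ratio of granule to total CPM for the 7 tested members (vertical axis), in control and knockout cells. Bars span the 4 ways to pair a granule with a total library of the same genotype, and circles and squares are the means over total replicate 1 and total replicate 2. Rbm15 and Zc3h13 lie above 0 in all pairings of both genotypes, and the bar of Cbll1 in knockout cells runs from -2.60 to -0.35.

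Next, knockout was compared with control cells in total RNA, where the design asks what loss of Mettl3 and m6A changes without stress. Mettl3 fell 3.77-fold, a log2 fold change of -1.91 (SE 0.27, edgeR adjusted p = 0.0345), and it was the only member called. The other 6 tested members were level or higher in knockout cells by value. Mettl14 had a log2 fold change of 0.02 (SE 0.31), with overlapping groups and a sign that changed with the scaling. Wtap had 1.01 (SE 0.31, edgeR adjusted p = 0.145), Virma 0.91 (SE 0.30, adjusted p = 0.149), Zc3h13 1.09 (SE 0.35, adjusted p = 0.149) and Rbm15 0.69 (SE 0.33, adjusted p = 0.233). For each of these 4, both knockout total libraries lay above both control total libraries.

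Cbll1 had the largest fitted value of the 7, 2.35 (SE 0.61, edgeR adjusted p = 0.13). Its level in knockout total replicate 1 was 4.59 times that in replicate 2, a larger ratio than all but 1.59% of the genes that averaged 5 CPM or more. Against the mean of the control total libraries on the log2 scale, it was 3.07 higher in replicate 1 and 0.87 higher in replicate 2, and no other library exceeded 38.16 CPM. The fitted change was 0.87 without replicate 1 and 1.35 with the GC trend of each library removed. Ordered by GC content, the gaps of the members between the knockout total replicates were largest at the lowest GC content and negative at the highest. They did not fall at every step between. The gap was 2.20 on the log2 scale for Cbll1, with a GC content of 40.62%, 0.69 for Virma (44.67%), 0.22 for Wtap (45.15%), 0.57 for Mettl14 (46.99%), 1.0 for Zc3h13 (50.13%), -0.29 for Mettl3 (50.22%) and -0.44 for Rbm15 (52.96%). Over the 10261 genes the same ratio had a Spearman rho of -0.729 with GC content, and in control total libraries the rho was 0.758. These are correlations across genes within libraries, and genes are not independent replicates. Exons of Gm29542 on the opposite strand overlap 17.57% of the exonic bases of Cbll1.

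In this comparison 1 of 7 tested members was called, beside 0.412% of all genes, and it was lower, beside 0.137% called lower. The groups did not overlap for 6 of 7, beside 49.1%. An unadjusted p under 0.05 was reached by 5 of 7, beside 24.8% of all genes. That share of all genes is not given for the smaller fits below. The median log2 fold change was 0.91 over the 7 and 0.02 over all genes. The call of Mettl3 was lost, among other settings, without any single control library or knockout granule library (2 to 6 members at an unadjusted p under 0.05), when only the total libraries were fitted (0 members called, 2 at an unadjusted p under 0.05), with voom and with scaling by library size alone. Under these settings its log2 value lay between -2.01 and -1.85. Without knockout total replicate 1 the count was 2 (Mettl3 and Cbll1, beside 5.52% of all genes) and without replicate 2 it was 5, with Wtap, Virma and Zc3h13 added (beside 47.8%).

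The granule fractions of the 2 genotypes, whose replicates were closest, were compared in the same way. Mettl3 fell 2.61-fold, a log2 fold change of -1.38 (SE 0.26, edgeR adjusted p = 0.0208). Mettl14 was lower by value as well, from 38.45 and 35.21 CPM in control to 24.26 and 19.41 in knockout granule libraries, but did not pass the threshold (log2 fold change -0.75, SE 0.31, edgeR adjusted p = 0.16). The values of Zc3h13 (0.81, SE 0.35, adjusted p = 0.176) and Rbm15 (0.57, SE 0.33, adjusted p = 0.295) were positive, each with both knockout libraries above both control libraries. Virma had -0.31 (SE 0.29), with non-overlapping groups. Wtap had 0.09 (SE 0.30) and Cbll1 -0.03 (SE 0.58), both with overlapping groups, and the sign of Cbll1 changed with the scaling. The Cbll1 levels of the 4 granule libraries lay between 28.98 and 30.45 CPM.

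Here 1 of 7 tested members was called, beside 9.45% of all genes, and it was lower, beside 3.66% called lower. The groups did not overlap for 5 of 7, beside 77.0%. The count was 0 without any single granule library, with 1 member at an unadjusted p under 0.05, and 3 without either knockout total library, with Mettl14 lower and Zc3h13 higher in addition (beside 39.0% and 38.9% of all genes). When only the 4 granule libraries were fitted, 5 of 7 were called, Mettl3, Mettl14 and Virma lower and Rbm15 and Zc3h13 higher, beside 57.3% of all genes. In the fit of all 8 libraries 3 of 7 members were at an unadjusted p under 0.05, beside 27.9% of all genes. The unadjusted share of all genes in the smaller fits is not given here.

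**Figure D4:**
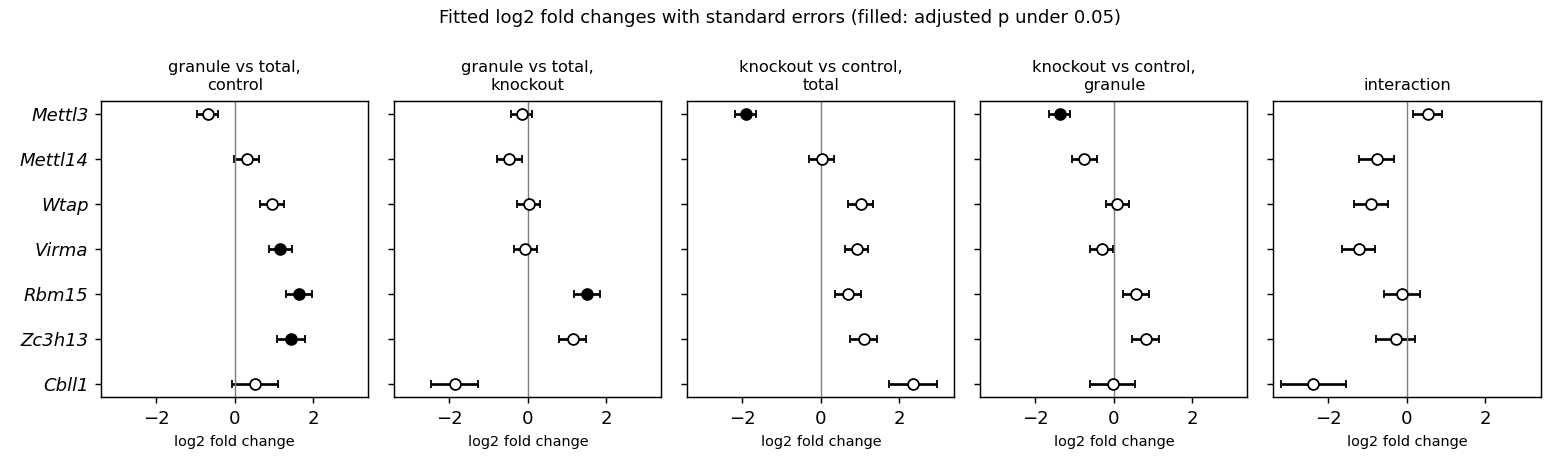
Fitted log2 fold changes (horizontal axis) of the 7 tested members in the 4 comparisons and in the interaction, with standard errors as bars. Filled points have an adjusted p under 0.05. The filled points are Virma, Rbm15 and Zc3h13 (control granule against total), Rbm15 (knockout granule against total) and Mettl3 (knockout against control in either fraction).

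An interaction term asked whether the granule to total ratio changed with genotype. No tested member was called by edgeR, with 2 of 7 at an unadjusted p under 0.05, beside 0.517% of all genes at the adjusted threshold and 25.8% at the unadjusted one. These 2 were Virma, with an interaction of -1.22 on the log2 scale (SE 0.42, edgeR adjusted p = 0.134), and Cbll1, with -2.38 (SE 0.83, adjusted p = 0.138). DESeq2's Wald test called both, beside 14.5% of all genes. Wtap had -0.92 (SE 0.43), Mettl14 -0.77 (SE 0.44), Zc3h13 -0.29 (SE 0.49), Rbm15 -0.12 (SE 0.46) and Mettl3 0.53 (SE 0.37). The count was 2 without knockout total replicate 1, again Virma (-0.85) and Cbll1 (-0.91), beside 18.6% of all genes, and 5 without replicate 2, beside 46.4%. The value of Zc3h13 was 0.29 without knockout total replicate 1.

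Other genes of the m6A pathway were read in lists. The median log2 fold change of 12 m6A readers, proteins that bind the mark or RNA carrying it, was 0.92 in control granule against total RNA. Of these readers 3 were called higher and 0 lower, beside 10.1% of all genes called and 5.89% called higher. They were Fmr1, a translational repressor (2.53, SE 0.54, edgeR adjusted p = 0.0296), Hnrnpa2b1, a nuclear RNA-binding protein (1.45, SE 0.27, adjusted p = 0.0199), and Igf2bp3, which stabilises mRNAs (1.35, SE 0.26, adjusted p = 0.0217). Control total replicates were at 25.79 and 52.12 CPM for Fmr1, 437.1 and 608.2 for Hnrnpa2b1, and 25.29 and 29.7 for Igf2bp3. Exons of Malsu1 on the opposite strand overlap 18.74% of the exonic bases of Igf2bp3. The other 4 comparisons called 0 of the 12 readers by edgeR. The shares of all genes called were 17.6% (knockout granule against total), 0.412% (genotypes in total RNA), 9.45% (genotypes in granule) and 0.517% (interaction). In the same order, 5, 7, 2 and 5 readers were at an unadjusted p under 0.05. The shares of all genes at that unadjusted threshold were 34.3%, 24.8%, 27.9% and 25.8%. The median log2 fold changes of the 7 writers and the 12 readers were 0.94 and 0.92 in control granule against total, -0.06 and -0.10 in knockout granule against total, 0.91 and 0.88 between genotypes in total RNA, -0.03 and -0.34 in the granule fraction, and -0.77 and -0.87 in the interaction. Over all genes these medians were -0.06, 0.04, 0.02, 0.08 and 0.09. The comparisons share libraries, and the interaction is computed from the same groups, so these likenesses are not independent of each other.

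Of the 2 erasers, the demethylases Fto and Alkbh5, 0 were called in any of the 5 comparisons, beside 0.412% to 17.6% of all genes. An unadjusted p under 0.05 was reached by 0 or 1 of them. That share of all genes is not given for control granule against total and was 24.8% to 34.3% otherwise. Counts from 2 genes are therefore not a result about the erasers. A further list held 6 other methyltransferase genes that write or help to write m6A or m6Am, its ribose-methylated form. In knockout granule against total 2 of them were called lower, beside 8.47% of all genes called lower. These were Mettl4 (-1.69, SE 0.39, edgeR adjusted p = 0.0257) and Mettl5, a ribosomal RNA methyltransferase (-1.47, SE 0.40, adjusted p = 0.0431). Both rested on knockout total replicates that differed, 11.16 and 6.47 CPM for Mettl4 and 20.91 and 9.503 CPM for Mettl5. Of 5 genes for the methyl donor S-adenosylmethionine and its by-product, Ahcyl1, a homologue of S-adenosylhomocysteine hydrolase, was called lower in 2 comparisons, for which 3.66% (genotypes in granule) and 8.47% (knockout granule against total) of all genes were called lower. It was at 332.8 and 324.8 CPM in control granule and 105.5 and 103.3 CPM in knockout granule libraries (log2 fold change -1.66, SE 0.26, edgeR adjusted p = 0.0124), and its change in knockout granule against total was -1.04 (SE 0.26, adjusted p = 0.031). No other gene of these 3 lists was called in any comparison.

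The genes whose profile over the 8 libraries was closest to that of Mettl3 were sought among 10254 genes that averaged 5 CPM or more, by the root mean square difference of log2 CPM after centring each gene on its own mean. They were Flnc, the actin crosslinker filamin C (0.262), Siglecg, a sialic acid-binding lectin (0.265), and Loxl4, a lysyl oxidase-like enzyme (0.272). Flnc, for example, ran from 1040 and 901 CPM in control total to 672 and 521 in control granule, 187 and 406 in knockout total, and 278 and 281 in knockout granule libraries. No other member was near this profile. The closest was Mettl14 at 0.79, with 23.8% of the genes closer to Mettl3, and the distance of the other 5 tested members was 1.20 to 1.59.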

How the data were processed

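The authors deposited raw counts per Ensembl gene for 8 poly(A) libraries, 1 column each. STAR, DESeq2 and GRCm38 (mm10) are named in the submitters' processing notes. The counting program, strand setting and annotation release are not given in the sources used here. Of 39017 identifiers, 37693 matched GENCODE M21 (GRCm38), which gave names, lengths, GC content and sequences. The GGACT matches printed come from its transcripts.

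Counts were fitted in R 4.3.3 with edgeR 4.0.16 (quasi-likelihood F-test, robust, trimmed-mean-of-M-values scaling, its expression filter over the 4 groups). All 8 libraries entered a model with a mean per group and 4 residual degrees of freedom. P-values were adjusted by Benjamini-Hochberg over 18952 genes, and called means an adjusted p under 0.05. Standard errors came from the F statistic. CPM and RPKM were computed from the counts, and log2 CPM used a prior count of 2. The interaction is the knockout minus the control granule to total change. Intervals at a count of 0 use 3 counts and cover counting error only. The procedure was tested on simulated data with the same spread in every group and no GC trend. That test does not cover the unequal replicate spread and GC trends of these libraries.

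All 8 members were named, with called genes of the other lists (at most 3 per list and comparison) and the 3 genes most like Mettl3. Members and lists were chosen with earlier results of these data known. Alternatives used limma 3.58.1 (voom) and DESeq2 1.42.0, other scalings and filters, GC trend removal (lowess, span 0.3), a replicate block, and fits without each library or of the compared groups only.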

Additional observations from a re-analysis of the deposited data

How the results depend on the processing

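The numbers of members called changed with the processing. For control granule against total RNA (3 called) the number was 1 with upper-quartile factors, 1 with a filter at a mean of 5 CPM, 5 with DESeq2, 5 with voom, 6 with only the groups compared, and 0 to 6 when single libraries were left out. For knockout granule against total (1 called) it was 2 with library size alone, 3 without an expression filter, 3 with DESeq2, 0 with voom, 0 with only the groups compared, 3 with the GC trend removed, and 0 to 4 without single libraries. Between genotypes in total RNA (1 called) it was 0 with library size alone, 4 without a filter, 5 with DESeq2, 0 with voom, 0 with only the groups compared, and 0 to 5 without single libraries. In the granule fraction (1 called) it was 4 with voom, 5 with only the groups compared, 2 with the GC trend removed, and 0 to 3 without single libraries. For the interaction (0 called) it was 1 without a filter, 2 with DESeq2, and 0 to 5 without single libraries. Where 1 library was left out of an arm, the lone library was assumed to vary like the other groups. The share of all genes called moved with the setting as well. With only the groups compared it was 42.4%, 0.00%, 0.00% and 57.3%, in the order above, and with DESeq2 it was 14.5% for the interaction. Shares for the other settings of this paragraph are not given here, so its counts are not a result about the members. The cause of these changes was not tested.

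The replicate numbers are shared by the groups, but nothing in the labels ties them to a batch. Deviations of same-numbered libraries correlated across genes at -0.602 between control and knockout total, -0.233 between control total and control granule, -0.13 between knockout total and knockout granule, 0.0923 between control total and knockout granule, 0.19 between control granule and knockout total, and 0.123 between the granule groups. With the replicate block the members called were 0 in control granule against total, 1 in knockout granule against total, 0 between genotypes in total RNA, 0 in the granule fraction and 0 in the interaction, and 3, 3, 1, 1 and 0 with the block and GC trend removal together. A crossed block with the control total numbers exchanged, chosen after seeing the data, gave 3, 1, 1, 1 and 0. Shares of all genes called with these blocks are not given here, so these counts are not a result about the members.

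Signs changed for 8 of the 35 member values, and none of these was past the threshold. Cbll1 in control granule against total (0.52) was -0.25 with the GC trend removed and -0.24 with the block added. In knockout granule against total, Wtap (0.02) was -0.01 with DESeq2 size factors and with DESeq2's own test, -0.08 without a filter, -0.05 with only the groups compared, and -0.21 to 0.13 without single libraries. Virma (-0.06) was 0.03 with library size alone, 0 with a filter at 5 CPM, 0.14 with the GC trend removed, 0.14 with the block added, and -0.50 to 0.32 without single libraries. Between genotypes in total RNA, Mettl14 (0.02) was -0.08 with upper-quartile factors, -0.11 with library size alone, 0 with the replicate block, -0.25 with the GC trend removed, -0.26 with the block added, and -0.29 to 0.38 without single libraries. In the granule fraction, Cbll1 (-0.03) was 0.12 with upper-quartile factors, 0.06 with library size alone, 0.15 with a filter at 5 CPM, 0.05 with the GC trend removed and 0.05 with the block added, and Wtap (0.09) was -0.05 to 0.17 without single libraries. In the interaction, Rbm15 (-0.12) was 0.12 with upper-quartile factors, 0.08 with library size alone, 0.08 with a filter at 5 CPM, and -0.67 to 0.21 without single libraries, and Zc3h13 (-0.29) was -0.87 to 0.29. Over all genes, the numbers called ranged from 0 to 8118, 243 to 9707, 0 to 9627, 0 to 7834 and 0 to 9349 in the 5 comparisons when single libraries were left out, against 1906, 3343, 78, 1791 and 98. Upper-quartile factors moved the median change of all genes in control granule against total from -0.06 to -0.29, so values under that scaling are relative to it. Counts of 514 to 22322 per tested member and library leave counting error small beside the widest replicate gaps, such as 2.20 for Cbll1 in knockout total libraries. It is not small beside the narrowest, such as 0.02 for Mettl3 in control total libraries.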
